A study of Mus musculus with 6 samples.

Results

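A pSmad2 ChIP library of mouse embryonic stem (ES) cells, kept in an inhibitor of the Smad2 receptors, was set against its own input DNA. In the paper's western blot the inhibitor lowered phosphorylated Smad2 (pSmad2) compared with the carrier DMSO, but did not remove it. Signal in this library is therefore not read as free of pSmad2. The places described are the 4759 positions of the SB peak list, of 17276 positions in the lists of all 3 treatments, as these lists were held here. The SB list used here may hold fewer positions than the authors counted. Each position marks the end of a peak, and the window of 1.1 kb that ends there is called an SB window. E14 TG2A cells, an established mouse ES cell line, were kept for 6 h in the inhibitor SB-431542 (SB, 10 µM) in KSR media without LIF and then for 18 h in SB (10 µM), in the carrier DMSO or in Activin (25 ng/ml), so that the DMSO and Activin cultures had also been in the inhibitor before. Each treatment gave 1 ChIP library, made with a polyclonal antibody against Smad2 phosphorylated at S465 and S467, and 1 input library. There are no replicates, and no p-value is given. The SB peaks were called on the same pair of libraries, so the ratio of SB ChIP over SB input in the windows describes them and is no test.

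Activin and Nodal bind type II receptors, which activate the type I receptors Acvr1b and Acvr1c. These phosphorylate Smad2 and Smad3, which enter the nucleus with Smad4 and bind DNA with partners such as Foxh1. SB-431542 blocks the kinase of these type I receptors and of Tgfbr1, and not that of the BMP receptors, which signal through Smad1, Smad5 and Smad8 to genes such as Id1, Id2 and Id3. In ES cells the pathway is kept active by Nodal of the cells themselves, and Lefty1, Lefty2 and Smad7 are known targets.

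Of the 100 SB windows of highest ratio, 29 were nearest a clustered histone gene, 10 lay over 10 kb from any start site, and 80 were above input in both the DMSO and the Activin ChIP library. Over all SB windows, 35.7% lay over 10 kb from any start site and 24.8% were above input in both other libraries. The sequences around the highest pileup (the place where most tags, extended to 200 bp, overlapped) are shown for windows of each kind. They are of 101 bases, plus strand, from assembly NCBIM37 (mm9), with the Smad-binding letters CAGAC or their reverse complement GTCTG in capitals. The first is within Hist1h2bb, a histone H2B gene, at chr13:23838814-23838914. The next is past the end of Eif4a2, a translation initiation helicase, in the neighbour Rfc4, at chr16:23114645-23114745. The third lies in an intron of the ribosomal protein gene Rpl4 over the small nucleolar RNA SNORD18, at chr9:64024943-64025043, where the nearest start site is that of Snapc5. The others are in Hist1h4d, a histone H4 gene, at chr13:23673614-23673714, just upstream of Msh4, beside Rabggtb, at chr3:153569394-153569494, far from any start site near Cd36 at chr5:17282533-17282633, and upstream of Lefty1 at chr1:182864720-182864820, which ranked low.
Hist1h2bb: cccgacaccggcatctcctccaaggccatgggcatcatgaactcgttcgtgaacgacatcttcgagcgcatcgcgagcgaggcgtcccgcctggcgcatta
Eif4a2: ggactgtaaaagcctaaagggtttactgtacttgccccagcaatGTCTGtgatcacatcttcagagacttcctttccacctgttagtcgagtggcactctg
Rpl4 (nearest Snapc5): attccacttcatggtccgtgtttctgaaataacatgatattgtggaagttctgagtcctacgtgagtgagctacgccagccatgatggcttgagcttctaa
Hist1h4d: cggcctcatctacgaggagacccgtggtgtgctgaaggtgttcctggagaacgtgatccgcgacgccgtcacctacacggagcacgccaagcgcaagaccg
Msh4 upstream: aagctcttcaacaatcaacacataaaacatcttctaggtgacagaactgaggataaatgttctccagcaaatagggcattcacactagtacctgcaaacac
Cd36: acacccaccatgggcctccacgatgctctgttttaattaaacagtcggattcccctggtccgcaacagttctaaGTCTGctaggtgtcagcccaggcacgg
Lefty1: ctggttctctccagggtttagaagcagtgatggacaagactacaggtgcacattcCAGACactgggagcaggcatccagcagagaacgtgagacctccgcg

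Tags, of 35 bp, were counted by their 5′ end moved 100 bp inward, 1 per position and strand, and each ChIP count was divided by its input count after both were scaled by the tags kept in their library. The SB libraries kept 7805150 ChIP and 9786787 input tags, and the other 4 libraries 9713869 to 11913742. Sharing of position and strand removed 19.9% to 24.6% of ChIP tags and 5.64% to 6.94% of input tags. A region is called above input where the scaled ratio was at least 2 and the lower limit of its 95% Clopper-Pearson interval was above 1. For the rank, an input under 3 tags was set to 3 tags. The intervals cover counting error only, since tags made by PCR are not independent molecules.

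An SB window held a median of 25 ChIP and 10 input tags. The median ratio was 3.2, and the ratios at the 5th and 95th percentile were 1.73 and 8.15. By the call rule 4079 of the 4759 windows (85.7%) were above SB input, where 1.47% of 2301938 genome tiles of the same length were. In 20 windows the SB input had 0 tags. The other 680 windows did not pass, and the lowest ratio was 0.784. A window need not be the peak that the authors called: the listed tags were over 1.5 times those of the window at 1141 positions (24%), and at 100 positions they counted back over 5 kb. The Activin input was above the SB input by the same rule in 93 of the windows (1.95%) and 0.713% of tiles. Only this direction was called. The windows and their rank rest on the SB input, so the share in windows is not free of that choice. It was 5.99% in the 952 windows of highest ratio.

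The same windows were then counted in the other treatments, each over its own input. Of the SB windows, 1949 (41.0%) were above the DMSO input and 1613 (33.9%) above the Activin input, against 1.8% and 1.4% of tiles. The medians were 1.92 in DMSO and 1.77 in Activin. All 3 treatments were above input in 1124 windows (23.6%), SB and 1 other in 1071, and SB alone in 1884 (39.6%, interval 38.2% to 41.0%). The windows were chosen on the SB libraries, so no direction is read from this difference. In the 1884 windows the medians were 3.31 in SB, 1.33 in DMSO and 1.29 in Activin, on 22 SB ChIP and 8 SB input tags.

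**Figure D1:**
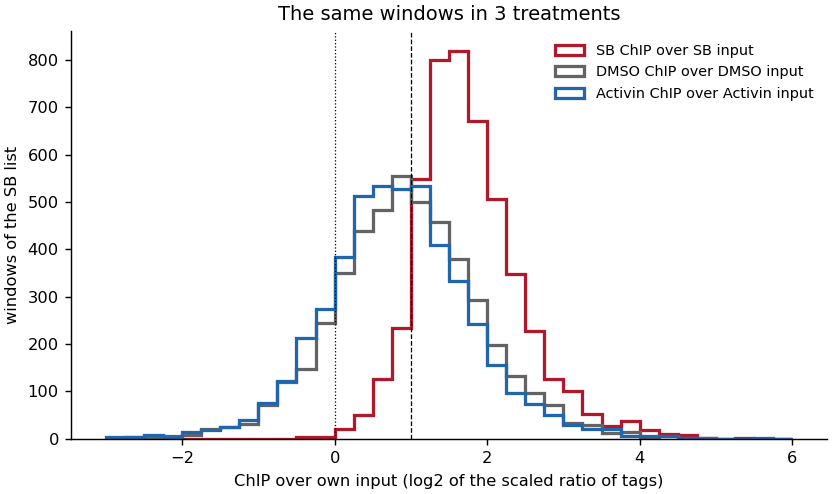
Number of SB windows (vertical axis) by the log2 of ChIP over own input (horizontal axis) in SB, DMSO and Activin, with a dotted line at equal levels and a dashed line at a ratio of 2. The SB values centre on a median ratio of 3.2 and those of DMSO and Activin on 1.92 and 1.77.

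Ranked by ratio, most windows at the top were also above input in the other treatments. Of the 100 highest, 89 were above input in DMSO and 84 in Activin. The nearest start site belonged to a clustered histone gene in 21 of the 50 highest. When the ranked windows were cut into 5 groups of equal size, the share above input in both other treatments fell from 41.9% in the highest to 13.4% in the lowest group. Over 4714 windows with tags in every library, the log2 ratios of SB and DMSO had a Pearson correlation of 0.266, those of SB and Activin 0.247 and those of DMSO and Activin 0.555. These points share the choice on SB and the local depth of the inputs, and the values are given as a description.

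Among the 12 windows of highest ratio, 8 had their pileup in histone genes of cluster 1 on chromosome 13. The highest was over Hist1h3c, a histone H3 gene, at chr13:23836377-23837486. Its ChIP and input tags were 92 and 3 in SB, 100 and 6 in DMSO and 76 and 6 in Activin. The ratios were 38.5 (interval 12.8 to 190) in SB, 20.4 (9.07 to 57.0) in DMSO and 13.1 (5.75 to 36.8) in Activin, so the intervals overlapped. Low input counts set these wide limits. The windows of Hist1h2bb, Hist1h4b, Hist1h4k, Hist1h2bg, Hist1h4d and Hist1h3i had SB ratios of 15.8 to 23.5. At Hist1h4d, of which a stretch is printed above, 139 SB ChIP tags stood against 10 input tags, 157 against 19 in DMSO and 146 against 7 in Activin. The Hist1h2bn window had 55 ChIP and 0 input tags in SB, with a lower limit of 18.1. Against the 3 inputs pooled its ratio was 13.5, and against the highest input rate among the window and its wider surroundings 14.1.

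The other 4 of these 12 lay outside histone genes. Past the end of Eif4a2, over Rfc4, which codes for a subunit of the clamp loader of DNA replication, there were 88 ChIP and 5 input tags in SB (ratio 22.1, 9.11 to 69.6), 122 and 14 in DMSO and 93 and 13 in Activin. The Rpl4 window with SNORD16 and SNORD18 had 42 and 2 tags in SB, 46 and 14 in DMSO and 30 and 11 in Activin. Its ratio was 26.3 (6.85 to 225) in SB, 4.03 in DMSO and 2.82 in Activin. Against the 3 inputs pooled the SB ratio there was 6.5. The window upstream of Msh4 had 41 ChIP and 3 input tags in SB (17.1, 5.47 to 86.5), with 3.84 in DMSO and 5.91 in Activin. The window at the end of Rpl28, a ribosomal protein gene, had 40 and 2 (25.1, 6.5 to 214), with 3.29 and 4.34. Against that highest local input rate these SB ratios were 4.93 and 4.18, so they rest on few input tags.

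The 8 highest windows over 10 kb from any coding start site ranked between 15 and 71. The one near Cd36, 59131 bp from its start site, had 34 ChIP and 3 input tags in SB (14.2, 4.47 to 72.3), and DMSO and Activin had 4.29 and 3.84. At its pileup 33 extended SB tags overlapped, over an annotated miRNA. In an intron of Tex14 the pileup was over a U3 small nucleolar RNA gene, with 32 and 4 tags in SB (10.0), 50 and 9 in DMSO and 36 and 7 in Activin. Those nearest Eif2s2, 6530418L21Rik, Gm14347, Dkc1, Taf1 and Celf1 had 23 to 25 ChIP and 1 to 3 input tags in SB. Of these 8 the Celf1 window was the one where neither other treatment had an interval above 1, with 9 and 9 tags in DMSO and 13 and 11 in Activin.

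Counted at 1 tag per position and strand, the 5 largest tag numbers of the authors' list did not mark the highest ratios. The listed 9556 tags lay over the pseudogene AY036118 on chromosome 17, 360083 bp from the nearest coding start site, that of Pgk2. The window there had 1764 ChIP and 983 input tags in SB and ratios of 2.25, 2.37 and 2.31 in SB, DMSO and Activin. With tags that share position and strand kept, the SB ratio there was 48.5, above the 39.2 of the Hist1h3c window under that setting. The rule of 1 tag per position and strand limits how many tags a window can hold, so the low ratios there depend on it. A window at Mid1, nearest Gm17379, had 86 ChIP and 131 input tags in SB (0.823, 0.62 to 1.09), and another at the Mid1 start site had 3.45. The 1257 listed tags in Slc2a1, a glucose transporter, counted back over 22.3 kb, and the 833 listed tags on Malat1, a long nuclear RNA, over 9.09 kb. Windows with an input of over 5 times the tile mean numbered 294, held 13.7% of the ChIP tags in all windows and had a median ratio of 1.96.

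Start sites held more of the windows than of the genome tiles, and their share changed along the rank. The pileup lay within 1 kb of a coding start site in 1342 windows (28.2%, 26.9% to 29.5%), against 2.31% of tiles. Gene ends held 13.7% and other exons 9.33%, against 1.48% and 1.56% of tiles, whereas introns held 28.2% against 34.8%. From the highest to the lowest group of the rank the start-site share was 18.3%, 23.0%, 26.2%, 36.2% and 37.3%, and the gene-end share 18.7%, 15.8%, 13.9%, 9.98% and 10.1%. The very top was different, with start sites in 24 of the 50 and 35 of the 100 highest windows, where many were histone genes. Start-site windows had more tags in both libraries, a median of 29 ChIP and 13 input tags, against 21 and 8 in introns. They were above both other inputs in 20.9% of cases, and gene-end windows in 39.5%.

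**Figure D2:**
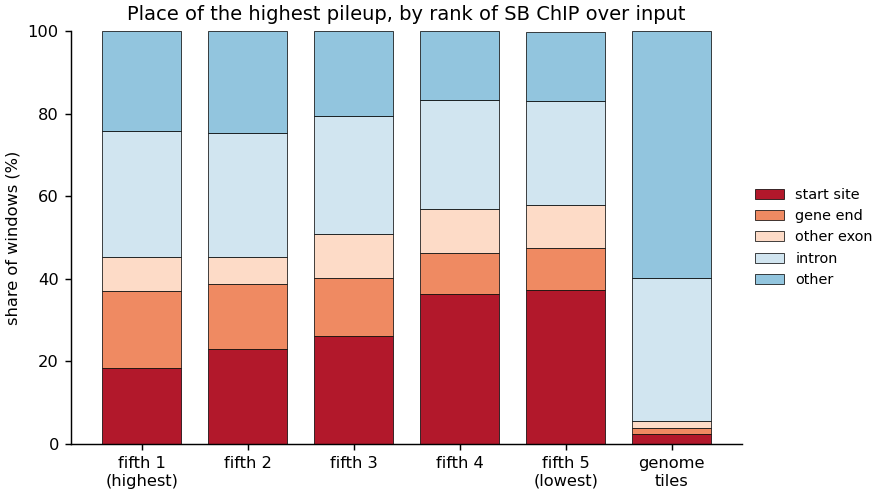
Share of SB windows in percent (vertical axis) by the place of their pileup, in 5 equal groups ranked by SB ChIP over input and in genome tiles. The start-site share is 18.3% in the highest and 37.3% in the lowest group, and the gene-end share is 18.7% and 10.1%.

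Base composition moved with place. The windows had a median GC content of 50%, start-site windows 57.8% and tiles 41.5%. The highest group of the rank had 46.2% and the lowest 54.0%. Tiles outside all peaks with the GC content of a window had a median SB ratio of 0.959. With each window's ratio divided by that of tiles of its own GC content, the windows' median became 3.28. The part of GC in single windows was not tested beyond this scaling.

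Start sites were also counted without the peak list, as the tags within 500 bp of the 5′ end of each coding gene. SB was above input at 1590 of 22350 (7.11%), DMSO at 1092 (4.89%) and Activin at 899 (4.02%). The Activin input was above the SB input at 99 (0.443%), and the reverse was not called. In the 500 bp after the start site the SB input had 123366 tags of 9786787 kept, and the Activin input 100947 of 10895120. With the SB input the richer there, the count of 99 does not measure noise in the other direction. Against the 3 inputs pooled, which hold more tags and so give narrower intervals, SB was above at 2777. Over gene bodies of at least 1.5 kb, from 500 bp past the start to the end, SB was above input at 847 of 19566 (4.33%), DMSO at 771 (3.94%) and Activin at 521 (2.66%). Bodies can overlap neighbouring genes, whose tags are then counted too. In all coding genes together the SB ratio was 1.3 in the 500 bp after the start site, where DMSO and Activin had 1.08, and 1.18 from 1.5 to 2 kb. In GC-rich tiles outside all peaks SB was also the highest. At 65% to 67.5% GC the ratios were 1.16 in SB, 0.967 in DMSO and 1.01 in Activin, and at 70% to 72.5% they were 1.28, 1.01 and 1.06. Scaled by GC, SB was above input at 1365 start sites. The part of GC in the differences between treatments was not tested.

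Histone genes that are used in DNA replication made up the list furthest above input. Of 67 genes, 56 (83.6%) had an SB window within 1 kb of their start site, against 6.33% of all 22208 coding genes. Within 500 bp of the start, 58 were above input in SB, 56 in DMSO and 54 in Activin. The median ratios were 7.94, 6.97 and 6.68, against 1.11, 0.981 and 1.03 for all coding genes. All 5 histone classes took part. Of the linker histone H1 genes 5 of 6 were above input in SB, of H2A 16 of 19, of H2B 15 of 18, of H3 10 of 11 and of H4 12 of 13, with medians of 10.9, 6.11, 7.84, 11.3 and 8.66. Neighbouring histone genes can share a window and start-site tags, as Hist1h2ac and Hist1h2bc do with the window of rank 113, so these counts are not independent.

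Of the histone genes, 9 were not above SB input. Hist1h1t, Hist1h2aa and Hist1h2ba, which are known from the testis, had SB ratios of 2.01, 2.15 and 2.72 on 8 to 13 ChIP tags and lower limits under 1. Hist1h3f had 11 ChIP and 9 input tags (1.53, 0.577 to 4.18) within 500 bp of its start, but its SB window, with the pileup 549 bp past the start, had 6.41 (3.1 to 14.9), beside 10.2 in DMSO and 4.58 in Activin, and Hist1h4m 1 and 0. Hist1h2ao, Hist1h2ap, Hist1h2bq and Hist1h2br had 0 tags in all 6 libraries. Histone genes are near-identical copies, so tags of some could not be placed or could be shared among them. Over the list the SB ratio was 12.4 (11 to 14.1) in the first 500 bp of the genes, 8.31 in the next 500 bp and 3.38 in the 500 bp after that. It was 3.36 in the 500 bp before the start and 5.84 in the 500 bp before those, and the flanks hold neighbouring histone genes of the clusters. DMSO had 11 and Activin 10.6 in the first 500 bp.

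Ribosomal protein genes, which code for the protein part of the cytosolic ribosome, differed from the histone genes in shape. Of 83 genes, 52 (62.7%) had an SB window at the start site and 65 were above input there in SB, 41 in DMSO and 30 in Activin. The start-site medians were 2.85, 1.99 and 1.62. Over gene bodies 71 of 76 (93.4%) were above SB input, with medians of 3.54 in SB, 3.44 in DMSO and 3.1 in Activin. The summed SB ratio was 1.51 in the 500 bp before the start, 3.91 (3.57 to 4.27) in the first 500 bp after it and between 3.64 and 4.36 from there to 5 kb, which is past the end of many of these genes. Both subunits had this level, with body medians of 3.49 for the large and 3.85 for the small subunit.

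The highest start-site windows of the list were at Rps2 (rank 30), Rps29 (rank 114), Rps24 (rank 229) and Rplp0 (rank 235). Over the bodies, Rpl26 had 195 ChIP and 33 input tags in SB (7.41, 5.1 to 11.1), 211 and 48 in DMSO and 220 and 52 in Activin. Rpl3 had 288 and 56 in SB (6.45, 4.83 to 8.75), with 7.13 in DMSO and 4.75 in Activin. Rps12 had 56 and 7 in SB (10.0, 4.56 to 26.1), with 4.72 in DMSO and 3.1 in Activin. Among the lowest were the paralogs Rpl3l, with a body ratio of 1.13 (0.8 to 1.6), and Rpl39l, with 1.32 (0.679 to 2.56).

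**Figure D3:**
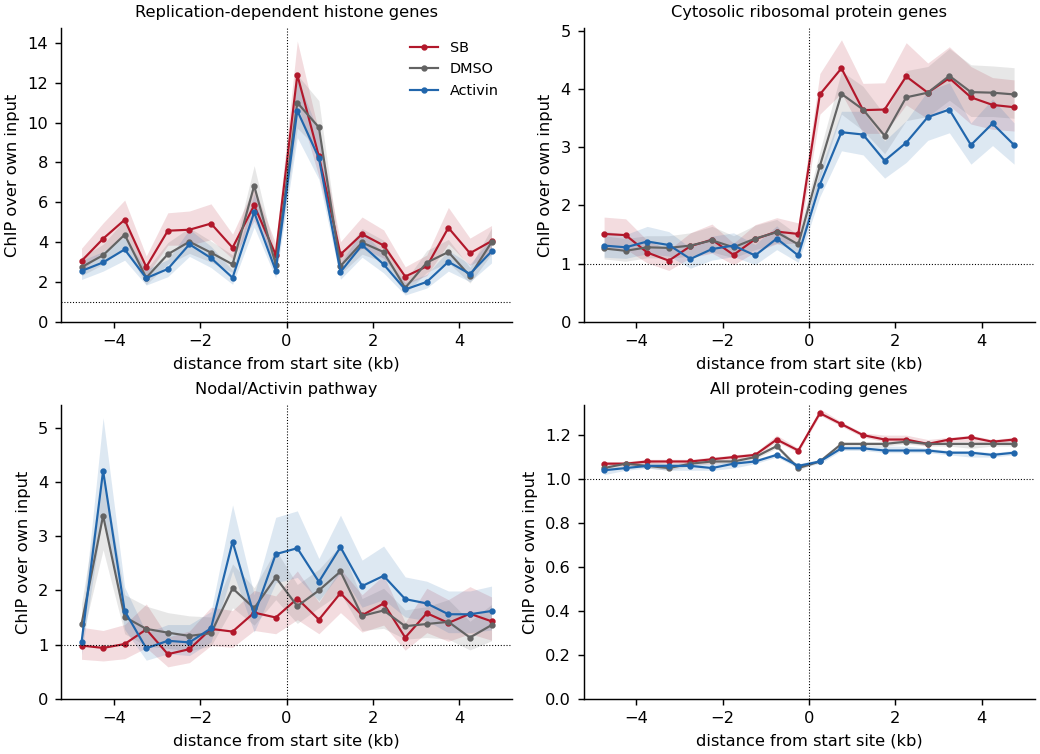
ChIP over own input (vertical axis) in 500 bp steps against the distance from the start site in kb (horizontal axis) for histone, ribosomal protein, Nodal/Activin pathway and all coding genes in SB, DMSO and Activin, with shaded 95% counting intervals. Histone genes reach 12.4 in SB just after the start, ribosomal protein genes 3.64 to 4.36 from 500 bp to 5 kb past the start, and all coding genes 1.3.

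The bodies with the highest lower limit, picked after their values were seen, were again shared. Of the 100 highest in SB, 100 were above input in DMSO and 96 in Activin, and 22 were ribosomal protein genes. Hspa8, a constitutive heat shock protein, led with 193 ChIP and 16 input tags in SB (15.1, 9.08 to 27.0), 182 and 19 in DMSO (11.7) and 160 and 13 in Activin (12.7). Txnip, an inhibitor of thioredoxin, had 12.1, 7.63 and 8.96, and Eif4a2 had 10.6, 9.81 and 6.91. The glycolytic gene Gapdh had 8.37 (6.24 to 11.4), 6.35 and 7.81, and Ftl1, the ferritin light chain, 12.2, 8.35 and 12.1. Sox2, a pluripotency factor with a gene of 1 exon, had 175 ChIP and 20 input tags in SB (11, 6.89 to 18.4), 5.81 in DMSO and 7.24 in Activin.

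Genes that make no protein ranged from high to input level. Malat1 as a whole had 651 ChIP and 66 input tags in SB, a ratio of 12.4 (9.59 to 16.2), with 12.1 in DMSO and 9.52 in Activin. Neat1, its neighbour, had 2.69, 2.62 and 2.04. The host genes of small nucleolar RNAs Gas5, Snhg1, Snhg3 and Snhg12 had SB ratios of 6.22, 5.56, 7.5 and 6.1 and DMSO ratios of 11, 9.47, 5.75 and 4.91. H19, an imprinted gene, was at the level of input with 18 and 19 tags (1.19, 0.588 to 2.39). Meg3, also imprinted, had 1.96, and the miRNA gene Mir290 had 8 ChIP and 0 input tags. These genes were chosen with earlier values known. Small nucleolar RNAs overlapped 46 SB windows (0.967%) and 6 of the 100 highest, against 0.0716% of tiles.

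Other lists are read against all coding genes, of which 6.33% had an SB window at the start site, 7.11% were above SB input there and 4.33% over the body. Of 50 RNA splicing factor genes, 19 (38.0%) had an SB window at the start site, with Hnrnpa1 at 6.52 (3.28 to 14.4, DMSO 7.47, Activin 4.53), and 22 of 49 bodies were above input. Of 34 translation initiation and elongation genes, 9 had a window, with Eif4a1 at 4.1 on 108 ChIP and 33 input tags, and 12 of 34 bodies were above input. Of 36 cell cycle and replication genes, 9 had a window, the highest being E2f3, a factor of the G1 to S step, at 6.06 (3.22 to 12.4) with 2.15 in DMSO and 2.14 in Activin, and Pcna, the replication clamp, at 5.02. Of 24 immediate-early genes, 6 had a window, at SB ratios of 2.07 to 2.67, with Klf6, Ctgf, Btg2 and Dusp1 highest. Of 40 proteasome genes, 2 (5%) had a window, neither of them above input, and 4 (10%) start sites were above SB input, close to the share of all genes.

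Gene families of other tissues were near input or under it. Of 1113 olfactory receptor genes, 4 were above SB input at the start site, with a list median of 0.752, and of 376 keratin-associated and vomeronasal genes 2 were, with a median of 0.627. Of 39 Hox genes, 2 (5.13%) were above input, and their median was 1.14, close to the 7.11% and 1.11 of all coding genes. The GC content around the start sites of the first 2 lists differed too, with medians of 39.1% and 37.3%, against 54.8% for all coding genes.

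**Figure D4:**
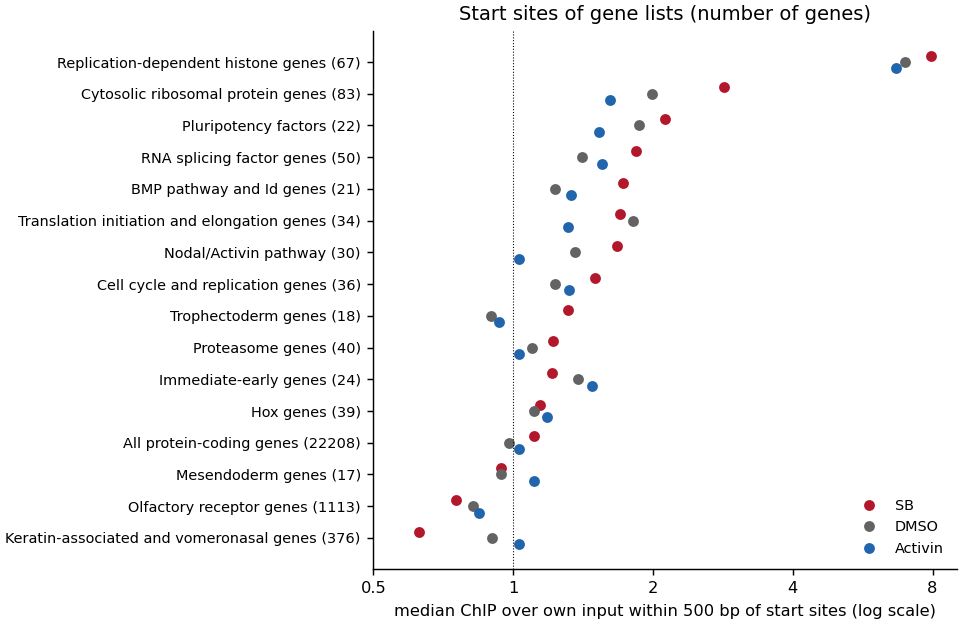
Median ChIP over own input within 500 bp of the start sites (horizontal axis, log scale) for 15 gene lists and all coding genes in SB, DMSO and Activin. Histone genes have 7.94, 6.97 and 6.68 and ribosomal protein genes 2.85, 1.99 and 1.62.

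Of 30 Nodal/Activin pathway genes, 6 (20.0%) had an SB window within 1 kb of the start site, against 6.33% of all coding genes. The median GC content around their start sites was 68.3%, against 54.8% for all coding genes, and its part was not tested. At the start site 6 were above input in SB, 5 in DMSO and 6 in Activin, and 5 of 30 bodies (16.7%) were above SB input, against 4.33% of all bodies. Over all distances 20 SB windows had one of these genes nearest, of which 16 were above SB input, 13 above DMSO input and 15 above Activin input. Over all 4759 SB windows these shares were 85.7%, 41.0% and 33.9%. The SB count is fixed by the choice of the windows, so the values in the other libraries carry the comparison.

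Several of these windows were higher in DMSO and Activin. At the Lefty1 promoter, which feeds back on Nodal, ChIP and input tags were 22 and 12 in SB, 125 and 16 in DMSO and 195 and 21 in Activin. The ratios were 2.3 (1.09 to 5.1), 9.58 (5.67 to 17.3) and 9.6 (6.11 to 15.9), and the SB interval did not reach the others. In an intron of Ski, a Smad corepressor, 32545 bp from the start site, they were 2.22 (1.29 to 3.94), 7.07 (4.78 to 10.8) and 9.79 (6.62 to 15.0). Upstream of Tdgf1, the Nodal co-receptor, they were 3.13 (1.45 to 7.31), 6.0 (3.58 to 10.6) and 14.2 (7.27 to 31.9), with the SB and Activin intervals overlapping slightly.

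At the promoter of Smad7, an inhibitory Smad, SB had 25 and 7 tags, DMSO 53 and 7 and Activin 46 and 4. The ratios of 4.48 (1.88 to 12.3), 9.29 (4.21 to 24.2) and 11.9 (4.34 to 45.5) overlapped. Pmepa1, which binds receptor-activated Smads, had 2.09 (0.973 to 4.69) at the start site in SB, 7.21 in DMSO and 3.21 (1.53 to 7.33) in Activin. The receptor Acvr2b and the repressor Tgif1 had 2.39 and 4.48 in SB, 1.58 and 2.72 in DMSO and 1.77 and 2.78 in Activin, with overlapping intervals. The Ski window at the start site went the other way, at 4.18 (2.15 to 8.75) in SB, 1.61 in DMSO and 1.97 in Activin, also with overlapping intervals.

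Over gene bodies Lefty1 and Lefty2 were at input level or under it in SB. Lefty1 had 18 ChIP and 32 input tags in SB (0.705, 0.373 to 1.3), 145 and 50 in DMSO (3.56, 2.56 to 5.01) and 347 and 34 in Activin (10.6, 7.41 to 15.5). Lefty2 had 0.529, 0.912 and 1.79. At both genes the intervals of SB and Activin did not meet. Nodal and Tdgf1 were above input in all treatments, with 2.58 and 2.33 in SB, 3.22 and 3.27 in DMSO and 3.86 and 3.33 in Activin.

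**Figure D5:**
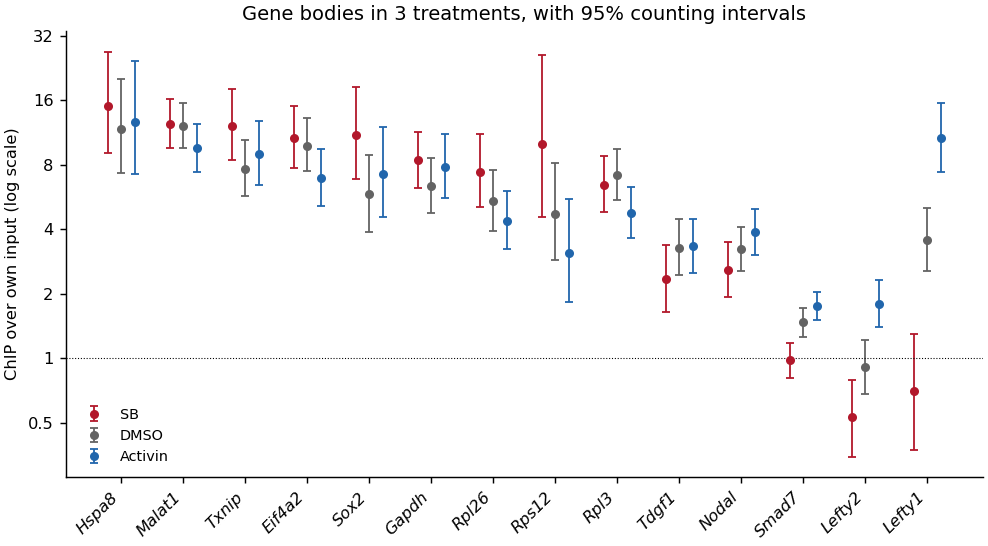
ChIP over own input (vertical axis, log scale) over the bodies of 13 coding genes and over Malat1 as a whole in SB, DMSO and Activin, with 95% counting intervals as bars and a dotted line at equal levels. Hspa8 to Rpl3 lie above input in each treatment, whereas Lefty1 is at 0.705 in SB and 10.6 in Activin.

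The BMP pathway and Id genes had 8 nearest SB windows, of which 8 were above SB input, 3 above DMSO input and 3 above Activin input. Over all SB windows these shares were 85.7%, 41.0% and 33.9%, so the counts are near those of any SB windows, and no direction is read from values in windows chosen on SB. The Id genes code for inhibitors of bHLH factors. A window at -2864 bp from the Id2 start site had 55 and 10 tags in SB (6.9, 3.48 to 15.2), 14 and 6 in DMSO (2.86, 1.03 to 9.09) and 24 and 8 in Activin (3.1). Another, at -5013 bp, had 22 and 2 tags in SB (13.8, 3.39 to 121) and 9 and 7 in DMSO and 7 and 10 in Activin. At the end of Id3 the ratios were 3.01 (1.75 to 5.35), 1.7 (0.787 to 3.77) and 0.827 (0.401 to 1.68). Upstream of Id1 they were 3.34, 2.04 and 1.9, and far upstream of Id4 6.97, 7.15 and 3.1. Bmpr1a, a BMP receptor, and Smad6, an inhibitory Smad, had 5.02 and 3.19 at their start sites in SB, 2.45 and 2.89 in DMSO and 4.65 and 4.39 in Activin, with wide intervals.

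Of 22 pluripotency factor genes, 7 had an SB window at the start site, the highest being Tbx3 at 4.14 (1.99 to 9.41), Utf1 at 3.58, Zfp42 at 2.58 and Nr0b1 at 2.4, beside DMSO ratios of 3.12, 2.29, 1.97 and 3.82. Klf2 had no such window but 102 ChIP and 24 input tags around its start site in SB (5.33, 3.39 to 8.7), against 2.66 in DMSO and 1.99 in Activin. Oct4 (Pou5f1) was not among the 22 genes counted, and 1 more gene of this list was not in the annotation. The 18 trophectoderm genes had 2 windows, at Fgfr2 (3.05, DMSO 0.892) and Ets2 (1.91, DMSO 1.84), and the 17 mesendoderm genes had 1, at Tbx6 (3.31, DMSO 1.64). A further 4 trophectoderm genes of the list were not in the annotation. At the start sites 2 of 18 trophectoderm and 0 of 17 mesendoderm genes were above SB input, and with 7.11% of all start sites above it such counts say nothing about these lists.

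The reverse view took the Activin list, whose places were chosen on the Activin libraries. The cut at the 100 highest was made after values were seen. Of its 100 highest places by Activin ratio, 69 were above SB input and 97 above DMSO input, with medians of 4.72 in SB, 7.36 in DMSO and 12.1 in Activin. Of all 5094 places, 37.3% were above SB input and 44.5% above DMSO input. The Activin share of 84.0% rests on the choice of these places.

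The Smad-binding letters CAGAC, searched on both strands within 100 bases to each side of the pileup, were in 44.3% of SB windows (42.9% to 45.7%), in 36.9% of coding start sites and in 33.5% of tiles. The highest group of the rank had 41.7% and the lowest 46.4%, so the share did not rise with the ratio. Of the 7 stretches printed above, 3 hold the motif, that of Lefty1 included. The shorter CAGA, which CAGAC contains, was in 90.7% of windows and 91.0% of tiles. In start-site windows the GC box GGGCGG was in 32.4%, against 40.1% of coding start sites. AGGCCT was in 9.88% of windows and 4.91% of tiles. Of the 16 motifs searched not all were higher in windows, and CCAAT was in 19.4% of windows and 29.5% of tiles. The median GC content was 50% in windows and 41.5% in tiles. Motif shares were not matched for GC, and its part in them was not tested. A match is no sign of a bound factor.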

How the data were processed

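The deposited files hold 35 bp tags as the authors aligned them, in which each line is 1 tag, and peak lists with a count of tags per peak made by the authors with MACS. Per the study's methods MACS was run for each treatment against its own input. The submitters' processing notes name mm9, while aligner and MACS version were not given in the sources used here. Tag counts per region were computed here with Python 3.11.15, NumPy 2.4.6, SciPy 1.17.1 and pandas 2.3.3, with NCBIM37 sequence and GENCODE genes of the same build (22350 coding records, 45940 start sites). In the DMSO ChIP library a tag ended 2 bp past chromosome 19.

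A window ran 1.1 kb back from a listed position. All 6 libraries were used, each ChIP over its own input, with no test, since each treatment has 1 library. A pileup within 1 kb of a start site counted as such, else within 1 kb of a gene end, else as exon, intron or other. GC was scaled in steps of 2.5 points. Counting and ratios were tested on simulated data.

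The windows, the 15 gene lists and the comparisons were chosen with earlier results of these data known. Named were the 12 highest windows, the 8 highest over 10 kb from a start site, the 5 of largest listed tag number, up to 4 members of a list with the highest start-site windows and all Nodal/Activin and BMP members with one. Genes named for their bodies and by distant windows were added after their values were seen. Alternatives changed tag sharing, scaling, thresholds, inputs and window definitions.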

Additional observations from a re-analysis of the deposited data

How the results depend on the processing

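The number of windows above input stayed between 3428 and 4232 under the other settings tried and was 2672 at a fold of 3. Start sites above input numbered 1021 when scaled by deposited tags, 739 at a fold of 3, 2777 with the 3 inputs pooled and 1365 when scaled by GC. Windows above input in both DMSO and Activin numbered 772 and 511 under the first 2 of these settings. The start-site share was 20.6% within 500 bp, 35% within 2 kb, 24.4% at the listed position, 32.2% for any overlap and 31.9% with at least 13 listed tags. Of the 100 highest windows, 60 stayed among the 100 highest with 1 tag added to both counts, 66 when ranked by the lower limit and 40 with all tags kept. CAGAC was in 39.0% of windows at their middle. The cause of these shifts was not tested beyond what each setting changes. Settings added after seeing the data left 56 to 59 histone start sites and 56 to 72 ribosomal protein gene bodies above input. Of 476 values for 68 named windows, 463 stayed within their counting interval, 13 moved out of it, and no window called above input fell under a ratio of 1. Of the windows ranked lowest, those nearest Gm6658, Arhgap23, Ndufa13 and Sall1 crossed 1 with the 3 inputs pooled, to 1.34, 1.16, 1.06 and 1.15, and the last also when scaled by tags outside peaks or by GC (1.02 and 1.08). No paired analysis was possible because each treatment has 1 ChIP and 1 input library and no replicate numbers. A median window held 25 ChIP and 10 input tags, and counts this small leave wide intervals on the ratio of any single window.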
